A study of Danio rerio with 36 samples.

Results

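The glucocorticoid response and the stress axis were followed through 9 genes in zebrafish larval heads: the receptor targets tsc22d3, klf9, fkbp5 and ddit4, the receptors nr3c1 and nr3c2, the hormone-metabolising enzymes hsd11b2 and hsd20b2, and the brain peptide crhb. They were taken by gene symbol, and all 9 were present in both count tables, among 24860 genes in experiment 1 and 25077 in experiment 2, with enough counts to be tested. Each library came from pooled heads, cut in front of the swim bladder, of larvae of a mixed wild-type line 10 days after fertilization. Axenic larvae carried no microbes, conventional larvae were colonized in the normal way, and re-colonized larvae were derived as axenic and given microbes on day 1, so that they control for the derivation. Experiment 1 comprised 6 axenic, 6 re-colonized and 6 conventional libraries of RNA depleted of ribosomal RNA, and experiment 2 comprised 4 axenic, 7 re-colonized and 7 conventional libraries of polyA-selected RNA. The study asked which molecular changes go with the hyperactivity of axenic larvae.

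In fish, as in mammals, stress makes hypothalamic neurons release corticotropin-releasing hormone, which drives the pituitary to secrete adrenocorticotropic hormone and the interrenal cells, the counterpart of the adrenal cortex, to make cortisol. Cortisol binds the glucocorticoid receptor and the mineralocorticoid receptor, transcription factors that raise or lower the transcription of their target genes. Enzymes that oxidise or reduce cortisol end the signal, and several target genes dampen inflammation, growth signalling or the receptor itself.

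All 4 receptor targets were lower in axenic heads of experiment 1 than in either colonized group, by 1.29-fold to 2.11-fold, while the glucocorticoid receptor gene and crhb did not pass the test in any comparison. In experiment 2, ddit4 and klf9 were lower against both colonized groups, and tsc22d3 and fkbp5 were lower against conventional heads. The call of fkbp5 there was at the edge of the threshold (edgeR adjusted p = 0.0496). Of all genes, 4.94% were lower against both colonized groups in experiment 1 and 0.511% in experiment 2. None of the 9 genes passed the test between re-colonized and conventional heads in edgeR, which called 0.0152% and 0% of all genes there. Levels are given in CPM, counts scaled to a common library size, after the TMM correction for library composition. The structural RNAs RF00017 and rn7sk held 33.3% to 46.5% of the counts in libraries of experiment 1 and 0.0% in experiment 2. CPM values of the 2 experiments are therefore on different scales. A gene was called at an edgeR adjusted p below 0.05, and each fold change is the fitted log2 difference with its standard error (SE). Both comparisons of an experiment use the same axenic libraries and are not independent.

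Summed counts per library ran from 11716742 to 15017642 in experiment 1 and from 15148058 to 25760592 in experiment 2. The biological coefficient of variation, the spread between pools of a group beyond counting error, was 16.5% and 35.4%. TMM factors of re-colonized 1 and 7 of experiment 2 were 1.544 and 1.373, against 0.7477 to 1.228 in the other libraries of that experiment. By group they ran from 0.8368 to 1.544 in re-colonized, 0.9466 to 1.228 in axenic and 0.7477 to 1.144 in conventional libraries. Conventional 2, 3, 4, 6 and 7 lay at 0.7477 to 0.8196. A higher factor lowers the CPM of a library. The part of these factors in the differences between groups was not tested. Whether each pool had its own spawn is not stated in the labels, and p-values refer to variation among the sequenced pools, which may be technical. In experiment 1 the names of all conventional libraries hold the mark L7, and those of the other groups L6. What the mark stands for is not stated, and its effect and that of conventional colonization cannot be told apart. In experiment 2 some S numbers in names of conventional libraries recur among axenic or re-colonized names, while none recurs within those other groups together. What the S numbers stand for is not stated either. Any effect of a separate numbering of conventional libraries cannot be told apart from that of conventional colonization. In pooled heads, fewer cells of a type and less RNA per cell cannot be told apart.

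ddit4 (chromosome 12, 48340133 to 48342260, plus strand, GRCz11) encodes an inhibitor of mTOR signalling that is induced by glucocorticoids, low energy and low oxygen. In experiment 1 its level ran from 142 to 245 CPM in axenic heads (median 203), from 299 to 569 CPM in re-colonized heads (median 440) and from 372 to 506 CPM in conventional heads (median 416). All 6 axenic libraries lay below every colonized library. The means were 199 ± 42.5 CPM in axenic, 420 ± 104 CPM in re-colonized and 420 ± 50.4 CPM in conventional heads (SD, n = 6 each). The gene fell by 1.08 on the log2 scale in axenic against conventional heads (SE 0.15, edgeR adjusted p = 1.84e-05) and by 1.08 against re-colonized heads (SE 0.15, edgeR adjusted p = 1.69e-05), a level 2.11-fold lower.

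In experiment 2 ddit4 stood at 18, 7.7, 15.9 and 5.43 CPM in axenic libraries 1, 3, 4 and 7. The re-colonized libraries ran from 23.9 to 55.1 CPM (median 35.6) and the conventional ones from 24.5 to 68.3 CPM (median 44.3). The 4 axenic libraries again lay below all 14 others. ddit4 fell by 1.98 against conventional heads (SE 0.34, edgeR adjusted p = 0.000911, 3.96-fold lower) and by 1.55 against re-colonized heads (SE 0.33, edgeR adjusted p = 0.00896). Without axenic 7, the lowest library, the difference from re-colonized heads was -1.33 and missed the threshold (edgeR adjusted p = 0.0662).

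klf9 (chromosome 5, 26075230 to 26078166, plus strand) encodes a zinc finger transcription factor that responds to glucocorticoids and thyroid hormone. In experiment 1 it measured 41.1 to 83.2 CPM in axenic heads (median 70), 92.8 to 138 CPM in re-colonized heads (median 117) and 97.4 to 130 CPM in conventional heads (median 109). The axenic group did not overlap with either colonized group. klf9 fell by 0.75 against conventional (SE 0.13, edgeR adjusted p = 0.000223) and by 0.81 against re-colonized heads (SE 0.13, edgeR adjusted p = 9.01e-05), which is 1.68-fold and 1.75-fold lower. Axenic libraries 1, 3, 4 and 7 of experiment 2 gave 19.7, 27.4, 34.1 and 14.6 CPM. The re-colonized libraries lay between 41.3 and 79.7 CPM (median 67.1), above all 4, while the conventional libraries spread from 18.2 to 98.3 CPM (median 72.7). Conventional library 1, at 18.2 CPM, was the only conventional library inside the axenic range. klf9 fell by 1.35 against conventional heads (SE 0.34, edgeR adjusted p = 0.0176) and by 1.42 against re-colonized heads (SE 0.34, edgeR adjusted p = 0.0186). Both calls ended without axenic 1 (edgeR adjusted p = 0.0551 and 0.0553) or without axenic 7 (0.0988 and 0.121).

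fkbp5 (chromosome 6, 41096058 to 41117243, plus strand) encodes a co-chaperone that is induced by the glucocorticoid receptor and lowers its affinity for hormone. Its range in experiment 1 was 78.9 to 124 CPM in axenic heads (median 90.2), 114 to 237 CPM in re-colonized heads (median 166) and 116 to 204 CPM in conventional heads (median 146). Only axenic D, at 124 CPM, reached into the colonized ranges. fkbp5 fell by 0.66 against conventional heads (SE 0.15, edgeR adjusted p = 0.00411) and by 0.77 against re-colonized heads (SE 0.15, edgeR adjusted p = 0.000934). In experiment 2 axenic libraries 1, 3, 4 and 7 held 59.2, 79.3, 103 and 66.3 CPM, re-colonized libraries 69.9 to 169 CPM (median 136) and conventional libraries 72 to 287 CPM (median 149). The groups overlapped, with 2 of 4 axenic libraries below the lowest conventional one. Conventional libraries 1 and 4 stood at 72 and 77.7 CPM and libraries 3 and 6 at 287 and 272 CPM. The difference from conventional heads was -1.13 (SE 0.34) with an edgeR adjusted p of 0.0496, at the edge of the threshold. It missed the threshold (edgeR adjusted p = 0.0551 to 0.171) without axenic 1, 3, 4 or 7 or conventional 2, 3, 6 or 7, and stood at 0.0763 in a fit of the 2 groups alone and at 0.0519 with no filter on low counts. Against re-colonized heads the difference was -0.71 (SE 0.33, edgeR adjusted p = 0.322).

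**Figure D1:**
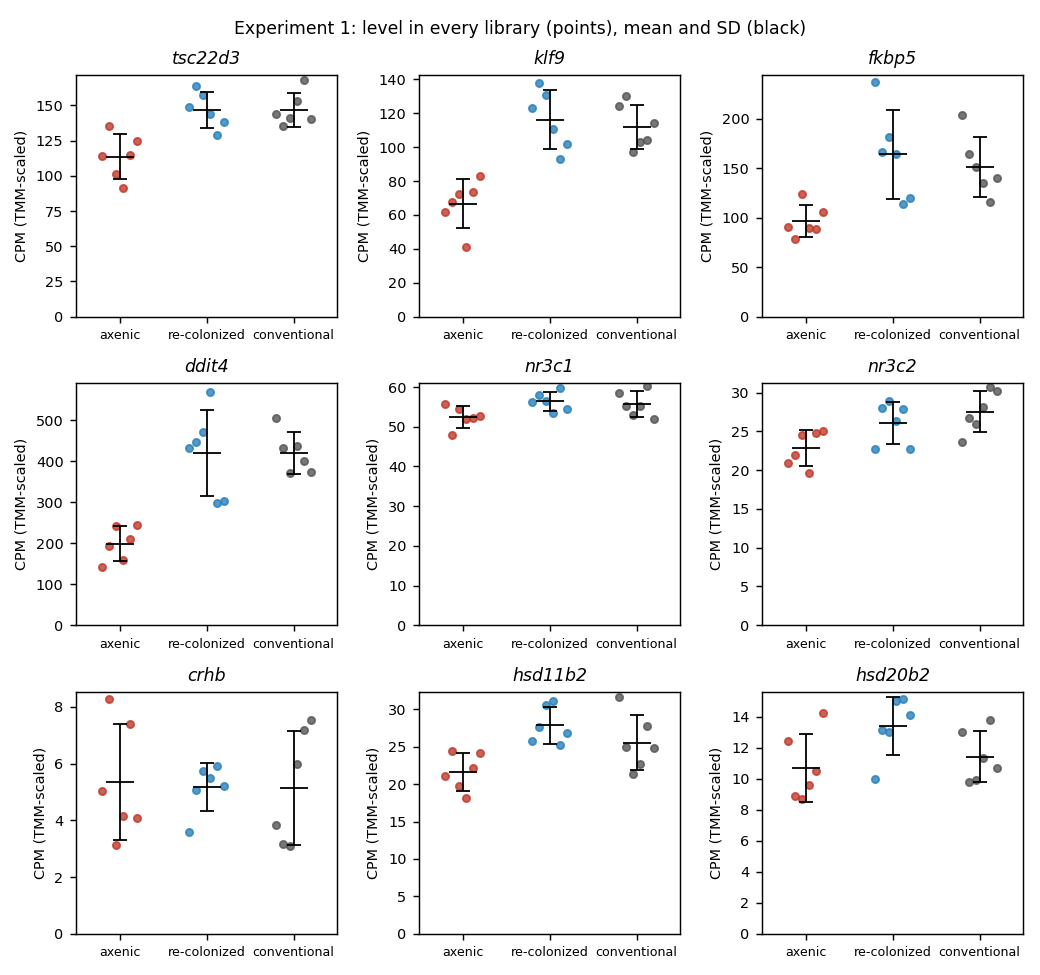
Level of each of the 9 genes (CPM after TMM scaling, linear axis from 0) in the 18 libraries of experiment 1. Points are libraries by group, and black bars are the mean and SD of 6 libraries: ddit4 and klf9 of axenic heads lie below all colonized libraries, while nr3c1 and crhb overlap between the groups.

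tsc22d3 (chromosome 14, 27998756 to 28001987, minus strand) encodes the counterpart of the leucine zipper protein GILZ, which glucocorticoids induce in mammals and which restrains inflammatory signalling. In experiment 1 it ran from 91.1 to 135 CPM in axenic heads (median 115), from 129 to 164 CPM in re-colonized heads (median 146) and from 135 to 168 CPM in conventional heads (median 143). All axenic libraries lay below the conventional ones, though the closest pair both rounded to 135 CPM, and axenic C lay above 1 re-colonized library. The gene fell by 0.37 against conventional heads (SE 0.09, edgeR adjusted p = 0.00669) and by 0.37 against re-colonized heads (SE 0.09, edgeR adjusted p = 0.00649), or 1.30-fold and 1.29-fold.

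The 3 groups of experiment 2 formed steps in tsc22d3. Axenic libraries 1, 3, 4 and 7 gave 34.1, 32.3, 52.6 and 44.5 CPM, the re-colonized libraries 54.2 to 87.9 CPM (median 61.3) and the conventional libraries 75.4 to 126 CPM (median 112). After TMM scaling every axenic library lay below every re-colonized one, and 6 of 7 re-colonized libraries lay below the lowest conventional one. These steps depend on the scaling. Axenic 7 held 1138 of 20839573 counts (TMM factor 1.228) and re-colonized 2 held 1147 of 22898370 (0.8368), the reverse order before scaling. tsc22d3 fell by 1.34 in axenic against conventional heads (SE 0.20, edgeR adjusted p = 0.00033, 2.54-fold lower). The difference between axenic and re-colonized heads, -0.67 (SE 0.20), missed the threshold in edgeR (adjusted p = 0.0587). It passed in 6 of 22 other settings and missed in the rest, with an edgeR adjusted p of up to 0.185. Among the passes were DESeq2 (adjusted p = 0.00946) and limma voom (0.0171). In edgeR it passed with DESeq2's size factors (0.0481), with a filter at a mean of 1 CPM (0.041) or without re-colonized 5 (0.0482). Re-colonized against conventional heads gave the same difference, -0.67 (SE 0.17), at an edgeR unadjusted p of 0.000519, rank 42 of 20169 genes, and an adjusted p of 0.239. DESeq2 called it there (adjusted p = 0.0192), as did limma voom (0.0475), the 2 passes among 25 other settings.

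The axenic to conventional difference of tsc22d3 was larger in experiment 2 than in experiment 1, by 1.03 on the log2 scale (SE 0.20, edgeR adjusted p = 0.031 for the interaction over 36 libraries, rank 4 of 21208 genes). It was the single gene of the 9 called in that test, which called 0.099% of all genes. For the difference between axenic and re-colonized heads, and for that between re-colonized and conventional heads, edgeR called 0 of 9 interactions and 0% of all genes. At an unadjusted p below 0.05 there were 0 and 2 of the 9, and DESeq2 called 0 in both. Shares of all genes under these 2 rules were not computed. The experiments differ in RNA extraction and in RNA selection, which cannot be told apart from other differences between them.

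A second gene model with the symbol TSC22D3 (chromosome 14, 27999805 to 28052475) overlaps tsc22d3 on the same strand. It held few counts, with a mean of 40.6 per library against 1784.2 for tsc22d3 in experiment 1 and 30.5 against 1547.7 in experiment 2, and adding the 2 rows changed no call among the 9 genes. A gene model of kat5b that runs from 23597140 to 66749536 of chromosome 5 spans klf9 and hsd20b2 on the same strand, and sinhcafl (29053217 to 64971840 of chromosome 7) spans hsd11b2 on the opposite strand. kat5b held a mean of 360.7 counts in experiment 1, against 155.1 for hsd20b2 and 1284.9 for klf9. In experiment 2 it held 732.2, against 97.9 and 1156.6. sinhcafl held 162.9 against 328.8 for hsd11b2 in experiment 1, and 251.7 against 263.7 in experiment 2. Use of strand in counting is not stated, and reads could be shared between these rows.

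**Figure D2:**
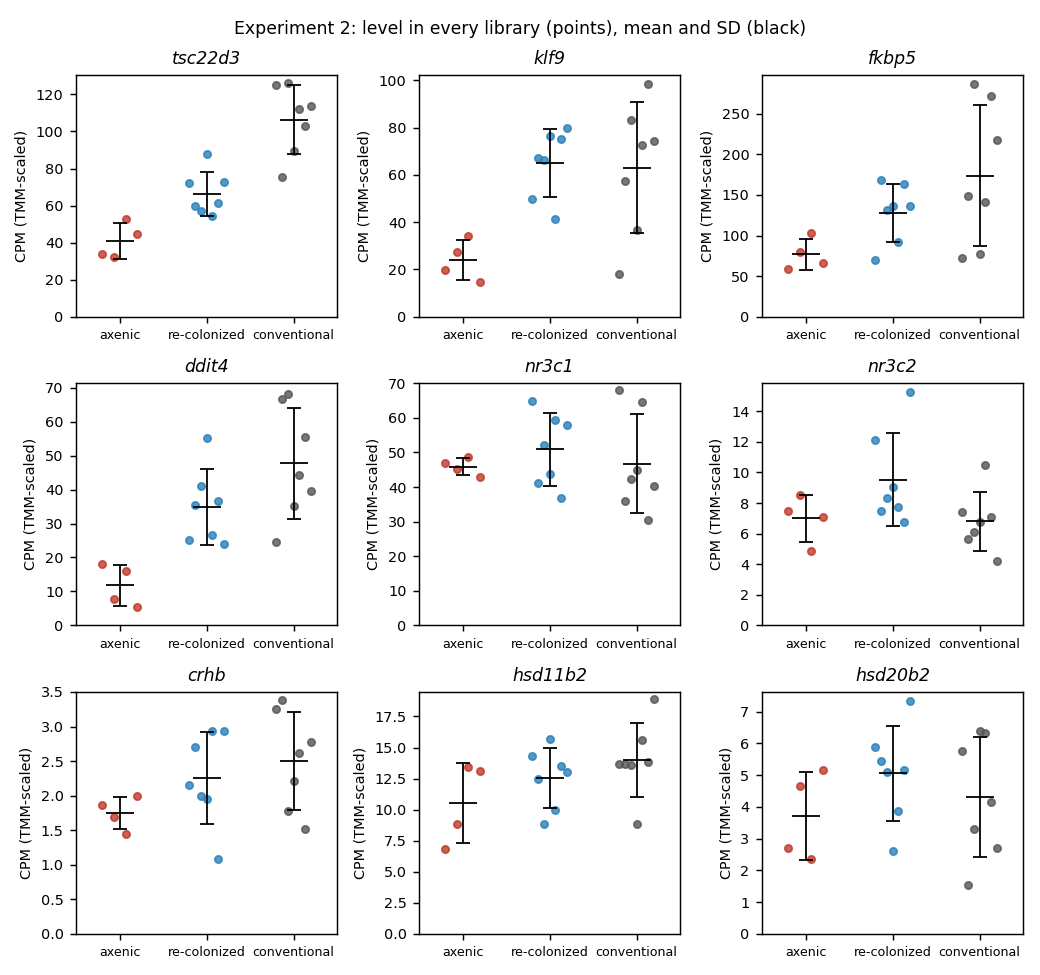
Level of each of the 9 genes (CPM after TMM scaling, linear axis from 0) in the 18 libraries of experiment 2. Points are libraries (4 axenic, 7 re-colonized, 7 conventional) and black bars the mean and SD: tsc22d3 runs from 32.3 CPM in the lowest axenic to 126 CPM in the highest conventional library, and fkbp5 and klf9 spread widest in conventional heads.

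The glucocorticoid receptor nr3c1 (chromosome 14, 23746710 to 23801390, minus strand) was close to level across experiment 1. It ran from 47.9 to 55.7 CPM in axenic, 53.5 to 59.9 CPM in re-colonized and 52 to 60.4 CPM in conventional heads, with overlapping groups. The differences of axenic from conventional and re-colonized heads were -0.09 (SE 0.07, edgeR adjusted p = 0.425) and -0.10 (SE 0.07, edgeR adjusted p = 0.327). In experiment 2 the axenic libraries held 47, 45.1, 48.6 and 42.8 CPM, inside the ranges of re-colonized (36.7 to 65 CPM) and conventional heads (30.4 to 68.2 CPM). The corresponding differences were 0.0041 (SE 0.22, edgeR adjusted p = 0.995) and -0.13 (SE 0.22, edgeR adjusted p = 0.855).

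nr3c2 (chromosome 1, 36935154 to 37087967, minus strand) encodes the mineralocorticoid receptor, which in fish also binds cortisol. In experiment 1 it measured 19.7 to 25.1 CPM in axenic heads (median 23.3), 22.8 to 28.9 CPM in re-colonized heads (median 27.1) and 23.7 to 30.7 CPM in conventional heads (median 27.4), with overlap. nr3c2 fell by 0.27 against conventional heads (SE 0.09, edgeR adjusted p = 0.0447), while the difference from re-colonized heads was -0.19 (SE 0.09, edgeR adjusted p = 0.157). The call ended (edgeR adjusted p = 0.053 to 0.105) without axenic A, C or F or conventional B, F, G or H, and with no filter on low counts. In experiment 2 the axenic libraries gave 7.49, 8.55, 4.87 and 7.11 CPM, re-colonized libraries 6.76 to 15.3 CPM and conventional libraries 4.21 to 10.5 CPM. The 2 highest values, 12.1 and 15.3 CPM, belonged to re-colonized 1 and 7, the libraries with the highest TMM factors. Neither axenic comparison passed (0.07, SE 0.26, edgeR adjusted p = 0.916 against conventional, and -0.42, SE 0.26, edgeR adjusted p = 0.497 against re-colonized heads).

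hsd11b2 (chromosome 7, 35112052 to 35126375, minus strand) encodes the enzyme that oxidises cortisol to inactive cortisone. In experiment 1 it ran from 18.1 to 24.5 CPM in axenic heads (median 21.7), from 25.2 to 31.1 CPM in re-colonized heads (median 27.2) and from 21.3 to 31.7 CPM in conventional heads (median 25). Axenic and re-colonized libraries did not overlap, and axenic and conventional ones did. hsd11b2 fell by 0.36 against re-colonized heads (SE 0.10, edgeR adjusted p = 0.0132), and its difference from conventional heads was -0.24 (SE 0.10, edgeR adjusted p = 0.107). Axenic libraries 1, 3, 4 and 7 of experiment 2 held 6.86, 8.87, 13.4 and 13.1 CPM, and the colonized libraries ran from 8.83 to 18.9 CPM. Neither difference passed (-0.37, SE 0.22, edgeR adjusted p = 0.367, and -0.22, SE 0.22, edgeR adjusted p = 0.71).

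hsd20b2 (chromosome 5, 38200807 to 38214808, plus strand) encodes a reductase that, in zebrafish, turns cortisone into a form that is excreted. It held 8.66 to 14.2 CPM in axenic, 10 to 15.1 CPM in re-colonized and 9.81 to 13.8 CPM in conventional heads of experiment 1, and 1.55 to 7.34 CPM across experiment 2. The groups overlapped throughout. Its largest axenic difference in experiment 1, -0.32 from re-colonized heads (SE 0.13), had an edgeR adjusted p of 0.0908. It passed in 3 of 22 other settings: without axenic H (0.0212), without re-colonized B (0.0362) and in limma voom (0.0426). No other comparison with axenic heads passed (-0.09 in experiment 1, -0.18 and -0.41 in experiment 2, edgeR adjusted p = 0.689, 0.823 and 0.649).

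crhb (chromosome 24, 24847683 to 24881997, minus strand), the gene of corticotropin-releasing hormone, held few counts. It ran from 3.12 to 8.28 CPM in axenic, 3.6 to 5.93 CPM in re-colonized and 3.1 to 7.54 CPM in conventional heads of experiment 1, with summed counts of 460, 389 and 405 per group. The groups overlapped, and the differences of axenic heads were 0.06 from conventional (SE 0.24, edgeR adjusted p = 0.902) and 0.05 from re-colonized heads (SE 0.24, edgeR adjusted p = 0.91). In experiment 2 the axenic libraries gave 1.86, 1.69, 1.45 and 1.99 CPM, the re-colonized ones 1.08 to 2.94 CPM and the conventional ones 1.51 to 3.39 CPM. The differences were -0.47 from conventional (SE 0.30, edgeR adjusted p = 0.394) and -0.34 from re-colonized heads (SE 0.29, edgeR adjusted p = 0.664). A difference of the size of that of tsc22d3 in experiment 1, 0.37, is below 2 SE of crhb in either experiment, and was not detectable for it at this depth and spread.

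**Figure D3:**
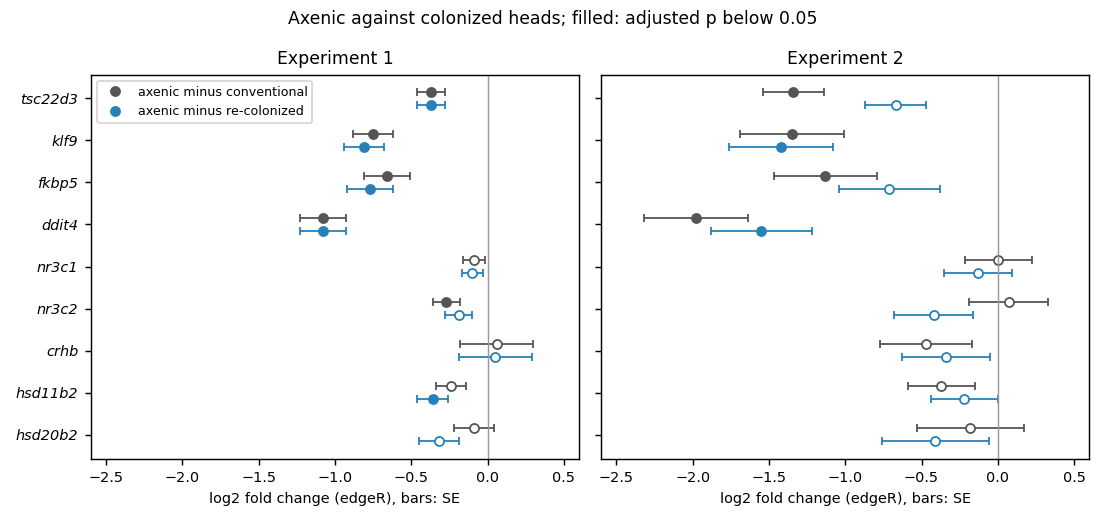
Log2 fold change of each of the 9 genes in axenic against conventional (grey) and re-colonized heads (blue), from edgeR, with bars for the SE and filled points for an adjusted p below 0.05. The 4 receptor targets lie below 0 in both experiments, from -0.37 for tsc22d3 in experiment 1 to -1.98 for ddit4 in experiment 2, and nr3c1 lies near 0.

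The 9 genes were chosen with earlier results of these data known. An excess of their counts over the shares of all genes may therefore come from that choice. By count, 5 of the 9 genes fell and 0 rose in axenic against conventional heads of experiment 1, where edgeR called 6.71% of all genes lower and 8.89% higher. Against re-colonized heads 5 of 9 fell and 0 rose, with 8.27% of all genes lower and 8.67% higher. The 4 targets were lower against both groups, as were 4.94% of all genes. In experiment 2, 4 of 9 fell against conventional heads (2.15% of all genes lower, 3.99% higher) and 2 of 9 against re-colonized heads (0.64% lower, 3.25% higher). klf9 and ddit4 were lower against both groups, as were 0.511% of all genes. The counts in experiment 2 rested on single axenic libraries. Without axenic 7 they were 2 and 0, the edgeR adjusted p of ddit4 against re-colonized heads being 0.0662, and without axenic 1 they were 2 and 1. Between re-colonized and conventional heads, edgeR called 0 of 9 in experiment 1 (0.0152% of all genes) and 0 of 9 in experiment 2 (0% of all genes). At an edgeR unadjusted p below 0.05 these counts were 0 and 2 of 9, as were 945 of 19727 and 2751 of 20169 of all genes. In DESeq2 they were 0 and 1, and in limma voom 0 and 1. Shares of all genes were not computed for those 2 tools. The median log2 difference of the 9 genes was -0.27 against conventional and -0.36 against re-colonized heads in experiment 1, and -0.47 and -0.42 in experiment 2, with all tested genes between -0.008 and 0.044.

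Other genes that glucocorticoids are known to induce were read from a list of 39 symbols. This list, like all lists used here, was chosen with earlier results of these data known. An excess of list genes over the shares of all genes may come from that choice, and is no independent test. Of 37 tested in experiment 1, 15 fell and 2 rose against conventional heads and 17 fell and 2 rose against re-colonized heads, with medians of -0.36 and -0.45. Of 36 tested in experiment 2, 8 fell and 2 rose against conventional and 5 fell and 1 rose against re-colonized heads, with a median of -0.43 in both. Over the 4 lists of the wider pathway together, 20 of 66 genes were called in experiment 1 in either comparison, and 12 and 7 of 69 in experiment 2. Of these, 16 and 17 were lower in experiment 1, where 6.71% and 8.27% of all genes were, and 10 and 5 in experiment 2, where 2.15% and 0.64% were. Leaving out axenic A lowered the count of 20 against conventional heads to 13, and leaving out axenic 7 lowered the 12 to 6. Several listed genes, among them cebpb, cebpd, socs3a and nfkbiaa, are also known to respond to cytokines.

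Of the genes of this list lower against both colonized groups, 14 in experiment 1 and 5 in experiment 2, those named here had the smallest adjusted p-values. lpin1, which encodes a phosphatidate phosphatase of lipid synthesis, ran from 120 to 233 CPM in axenic heads of experiment 1 and from 294 to 391 CPM in all 12 colonized libraries. It fell by 0.88 and 0.96 there (SE 0.13 each, edgeR adjusted p = 2.37e-05 and 7.31e-06), and by 1.42 and 1.63 in experiment 2 (SE 0.21 and 0.22, edgeR adjusted p = 0.000303 and 0.000203), against conventional and re-colonized heads in that order. mknk2b, a kinase gene whose product acts on a translation initiation factor, fell by 0.64 and 0.66 in experiment 1 (edgeR adjusted p = 0.000178 and 0.000107) and by 1.47 and 1.37 in experiment 2 (edgeR adjusted p = 9.94e-05 and 0.000338). Its axenic libraries of experiment 2 held 166 to 209 CPM and the colonized ones 424 to 673 CPM.

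trim63a and fbxo32 encode ubiquitin ligases that break down muscle protein. trim63a held 6.4 to 14.9 CPM in axenic and 10.4 to 26.9 CPM in colonized heads of experiment 1, and 1.37 to 2.7 CPM against 5.47 to 23.3 CPM in experiment 2, where the ranges did not overlap. Its fitted log2 differences were -0.70 and -0.96 in experiment 1 (edgeR adjusted p = 0.0245 and 0.0022) and -2.55 and -1.98 in experiment 2 (edgeR adjusted p = 4.71e-05 and 0.000652). Its axenic to conventional difference was larger in experiment 2 by 1.92 (SE 0.38, edgeR adjusted p = 0.031 for the interaction). fbxo32 fell by 0.58 and 0.69 in experiment 1 (edgeR adjusted p = 0.0153 and 0.00394) and by 1.98 and 1.88 in experiment 2 (edgeR adjusted p = 0.00259 and 0.00568). With ddit4 and klf9, these 4 genes made 6 of the lists' genes lower against both colonized groups in both experiments. The share of all genes meeting this rule in both experiments was not computed. In experiments 1 and 2 taken apart, 4.94% and 0.511% of all genes were lower against both groups.

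Genes of inflammatory signalling on the list were called in experiment 1. cebpb, a transcription factor gene of the acute phase, fell by 0.96 against conventional (edgeR adjusted p = 9.21e-05) and 1.09 against re-colonized heads (edgeR adjusted p = 1.69e-05). socs3a, an inhibitor of cytokine receptors, fell by 1.35 and 1.18 (edgeR adjusted p = 9.85e-05 and 0.000394). Neither passed in experiment 2, where the fitted level of socs3a was 2.14-fold and 2.02-fold lower (edgeR adjusted p = 0.0774 and 0.145) and the log2 differences of cebpb were -1.14 and -0.77 (0.123 and 0.433). The opposite direction was taken by angptl4, which encodes an inhibitor of lipoprotein lipase that fasting also induces. It held 31.2 to 52.5 CPM in axenic and 4.43 to 14.3 CPM in colonized heads of experiment 1, and was 5.66-fold higher against conventional (edgeR adjusted p = 1.53e-09) and 4.58-fold higher against re-colonized heads (edgeR adjusted p = 7.79e-09), the SE of the log2 difference being 0.18 in both. It was also 5.60-fold and 6.15-fold higher in experiment 2 (SE 0.36 on the log2 scale, edgeR adjusted p = 0.000233 and 0.000312). A second gene of the list, pdk2a, was also higher against both colonized groups of experiment 1 (larger edgeR adjusted p = 0.0109). The direction of the list was therefore not shared by all its members.

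**Figure D4:**
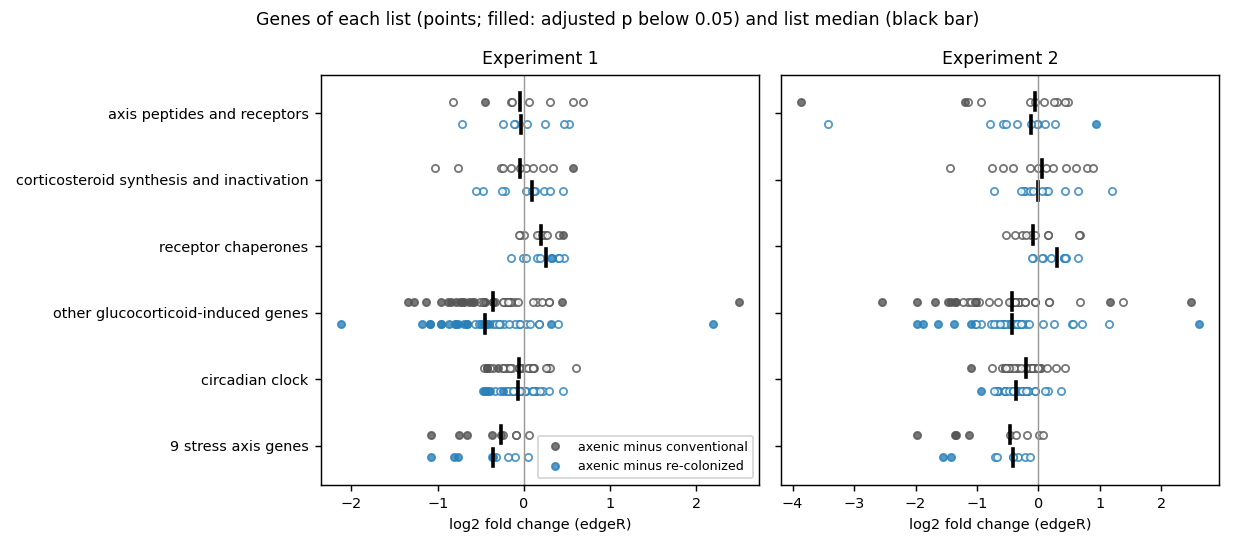
Log2 fold change (edgeR) of each tested gene of the pathway lists, the clock list and the 9 genes in axenic against conventional (grey) and re-colonized heads (blue), with the list median as a black bar. Filled points are called genes: those of the glucocorticoid-induced list lie mostly below 0 (15 of 17 against conventional heads in experiment 1), and angptl4 lies above 2.

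Upstream of the receptor, 8 axis peptides and receptors were tested in experiment 1 and 11 in experiment 2. Against conventional heads 1 of 8 and 2 of 11 were lower, where 6.71% and 2.15% of all genes were. Against re-colonized heads 0 of 8 were called in experiment 1. In experiment 2, 1 of 11 was higher there and 0 lower, with 3.25% of all genes higher. crhbp, whose product binds and holds back corticotropin-releasing hormone, ran from 12.7 to 23.7 CPM in axenic and 19.5 to 30.2 CPM in conventional heads of experiment 1 and fell by 0.45 (SE 0.15, edgeR adjusted p = 0.0415). It fell by 1.19 against conventional heads of experiment 2 (SE 0.35, edgeR adjusted p = 0.0436), and the differences from re-colonized heads were -0.24 and -0.79 (edgeR adjusted p = 0.304 and 0.267). The other axis genes called were ucn3l, a urocortin, with 2 counts in 4 axenic libraries against 52 in 7 conventional libraries of experiment 2, and oxt, the oxytocin gene, which rose by 0.94 against re-colonized heads there (SE 0.26, edgeR adjusted p = 0.0391). pomca, the precursor of adrenocorticotropic hormone, was not called, with 4.24 to 7.57 CPM in axenic and 3.23 to 5.53 CPM in colonized heads of experiment 1. Its differences from conventional and re-colonized heads were 0.30 and 0.24 there (edgeR adjusted p = 0.223 and 0.342). They had the opposite sign in experiment 2, at -1.14 and -0.53 (SE 0.69 and 0.68, edgeR adjusted p = 0.369 and 0.789). These 4 genes were chosen for description after their values were seen.

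Of the genes of corticosteroid synthesis and inactivation, 11 and 12 were tested. hsd11b1la rose by 0.57 against conventional heads of experiment 1 (SE 0.19, edgeR adjusted p = 0.0498), and no other was called in a comparison with axenic heads. Interrenal markers, 8 of 9 in the first table and 7 of 9 in the second, had summed levels of 12 to 17 CPM in axenic, 12.9 to 14.6 CPM in re-colonized and 14.5 to 19.3 CPM in conventional heads of experiment 1, and 7.62 to 16.9, 9.32 to 25 and 9.63 to 31.9 CPM in experiment 2. The medians in experiment 2 were 14.8, 15.4 and 28.7 CPM in that order. Against conventional heads there, the 4 tested markers cyp17a2, cyp11c1, cyp17a1 and star gave -1.44, -0.76, -0.01 and 0.13. None was called (edgeR adjusted p = 0.102 to 0.994). mc2r, the receptor through which interrenal cells sense adrenocorticotropic hormone, had 7, 5 and 2 counts per group in experiment 1. Among 10 receptor chaperones, fkbp4, a co-chaperone that in mammals helps the receptor into the nucleus, rose by 0.45 against conventional heads of experiment 1 (edgeR adjusted p = 0.0307), and st13 rose by 0.33 against re-colonized heads (edgeR adjusted p = 0.0258). Against conventional heads of experiment 1, 1 of 11 synthesis and inactivation genes and 1 of 10 chaperones rose. There 8.89% of all genes were higher. Against re-colonized heads of experiment 1, 1 of 10 chaperones rose, where 8.67% of all genes were higher. hsd11b1la, fkbp4 and st13 were likewise picked after their values were seen.

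Cortisol follows the day and several targets are also under clock control, and 31 genes of the circadian clock were read beside them. The time of day at collection is not stated. In experiment 1, 3 fell and 0 rose against conventional and 4 fell and 0 rose against re-colonized heads, shares near those of all genes (6.71% and 8.27% lower). tefb, a transcription factor of clock output, fell by 0.43 and 0.39 (edgeR adjusted p = 0.00354 and 0.00636). nr1d2a, a repressor of the core loop, fell by 0.43 and 0.44 (edgeR adjusted p = 0.0118 and 0.00972), and bhlhe40, also a repressor, by 0.30 and 0.24 (edgeR adjusted p = 0.0134 and 0.0418). In experiment 2 the single gene called was cry1bb, a cryptochrome, which was 2.15-fold and 1.92-fold lower (edgeR adjusted p = 0.0154 and 0.0486). This is 1 of 31 in each comparison, where 2.15% and 0.64% of all genes were lower. The median log2 difference of the 31 genes was -0.06 and -0.07 in experiment 1 and -0.21 and -0.36 in experiment 2. All tested genes gave -0.008, 0.009, 0.044 and -0.006 in that order. per1a, a clock gene that glucocorticoids also induce, gave -0.46 and -0.45 in experiment 1 and -0.48 and -0.68 in experiment 2, without passing (edgeR adjusted p = 0.104 to 0.224). It was picked after its values were seen. The part of the clock in the target genes' differences was not tested.

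Markers of immune and other cells were read beside these results, and some lists differed between axenic and colonized heads while others did not. Shares of all genes are given against conventional and re-colonized heads in that order. In experiment 1, 6.71% and 8.27% were lower and 8.89% and 8.67% higher. In experiment 2, 2.15% and 0.64% were lower and 3.99% and 3.25% higher. Macrophage markers (6 of 6 in the tables) summed to 11.8 to 18 CPM in axenic, 24.4 to 35.6 CPM in re-colonized and 22 to 31.3 CPM in conventional heads of experiment 1, and 4 of 5 tested fell in each comparison. In experiment 2 their sums were 10.8 to 16.1, 13.2 to 21.9 and 11.6 to 36.7 CPM, with c1qa at 0 in the axenic libraries and 1 of 5 lower in each comparison. Neutrophil markers (4 of 4) summed to 13.8 to 19.1 CPM in axenic, 25.9 to 49.4 CPM in re-colonized and 28.8 to 41 CPM in conventional heads of experiment 1, with 2 and 3 of 4 lower. In experiment 2 the sums were 32.3 to 53, 24.8 to 173 and 60.8 to 249 CPM, with 1 and 0 of 4 lower. In the other direction, cartilage markers (5 of 5) summed to 881 to 1512 CPM in axenic and 307 to 461 CPM in colonized heads of experiment 1, and to 6320 to 11370 against 745 to 4926 CPM in experiment 2, with 4 of 5 or 5 of 5 higher in each comparison. Liver markers (4 of 4) summed to 839 to 1257 against 329 to 662 CPM and to 1258 to 2716 against 113 to 1011 CPM, with 3 of 4 or 4 of 4 higher. Epidermis markers (4 of 4) summed to 1177 to 2092 against 582 to 978 CPM and to 7805 to 14825 against 2217 to 5427 CPM, with 2 of 4 higher in each comparison and evpla lower against re-colonized heads of experiment 1 (-0.43, edgeR adjusted p = 0.039). Skeletal muscle markers (5 of 5), the tissue of trim63a and fbxo32, summed to 1836 to 2420 against 1097 to 1910 CPM in experiment 1, with 5 and 4 of 5 higher, and to 4517 to 7768 against 1127 to 13639 CPM in experiment 2, with 0 of 5 called. Photoreceptor markers (5 of 5) summed to 1188 to 1581 against 589 to 1116 CPM in experiment 1, all 5 higher, and intestine markers (4 of 4) to 132 to 219 against 72.5 to 131 CPM. In experiment 2 both sums overlapped with those of colonized heads. Photoreceptor markers gave 5262 to 7894 against 2658 to 7343 CPM, with 1 and 2 of 5 higher. Intestine markers gave 157 to 326 against 51.5 to 240 CPM, with 0 of 3 called. Summed levels of lymphocyte, ionocyte and kidney markers overlapped between the groups. Of 3 lymphocyte markers tested in experiment 1, il7r was lower against conventional (-1.04, edgeR adjusted p = 0.0431) and re-colonized heads (-1.39, edgeR adjusted p = 0.00553). The lymphocyte markers rag1 (0.36 and 0.05) and rag2 (0.26 and -0.15) were not called there, and 0 of 3 were called in experiment 2. Of 4 kidney markers tested in experiment 1, cdh17, also an intestine marker, was higher against both groups, and 3 were not called. In experiment 2, 0 of 4 were called. Of 8 ionocyte markers, foxi3a (-0.70, edgeR adjusted p = 0.00594) and slc12a10.2 (-0.59, edgeR adjusted p = 0.0041) were lower against re-colonized heads of experiment 1. There 6 of 8 were not called, among them slc9a3.2 (0.34), atp6v1aa (0.09) and ca2 (0.02), and the median was -0.30. Against conventional heads, and in both comparisons of experiment 2, 0 of 8 were called. Neuron markers (6 of 6) summed to 481 to 541 CPM in axenic and 411 to 488 CPM in colonized heads of experiment 1, with 2 of 6 higher against re-colonized heads. Pituitary markers summed to 46.3 to 81.3 and 58.3 to 89.7 CPM there. In experiment 2 the sums of both lists overlapped between the groups, with 0 of 6 neuron and 0 of 4 pituitary markers called against either colonized group. No marker of the other lists used here was at 0 in a whole group but slc12a3, a kidney marker, in conventional heads of experiment 2. The part of these shifts in the differences of the 9 genes was not tested.

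Among libraries of the same group, klf9, fkbp5 and ddit4 varied together in both experiments. After the mean of each group was subtracted from log2 CPM, 4 of the 36 gene pairs had a Pearson correlation above 0.5 in both experiments, each over 18 libraries that share processing and depth differences. The share of all gene pairs above 0.5 in both experiments was not computed, so the count has no background beside it. klf9 and fkbp5 gave 0.52 in experiment 1 and 0.87 in experiment 2, klf9 and ddit4 0.65 and 0.61, fkbp5 and ddit4 0.64 and 0.53, and tsc22d3 and hsd11b2 0.60 and 0.68. Without the 2 libraries farthest from the median, klf9 and fkbp5 kept 0.54 and 0.88, while klf9 and ddit4 gave 0.59 and 0.36, fkbp5 and ddit4 0.68 and 0.37, and tsc22d3 and hsd11b2 0.43 and 0.75. tsc22d3 gave 0.57 with klf9 in experiment 1 and 0.10 in experiment 2, so the targets did not form a single block. fkbp5 ran against crhb in both (-0.65 and -0.47). In experiment 2 nr3c1 ran against fkbp5 (-0.66), but nr3c1 also followed the log2 TMM factor of the library (0.79). All of fkbp5 (-0.57), ddit4 (-0.61) and klf9 (-0.46) ran against that factor. In experiment 1 the values with the factor were 0.11 for nr3c1, -0.45 for fkbp5, -0.06 for ddit4, 0.05 for klf9 and 0.6 for crhb. crhb gave 0.31 with the factor in experiment 2. The part of library composition in these pairs was not tested.

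**Figure D5:**
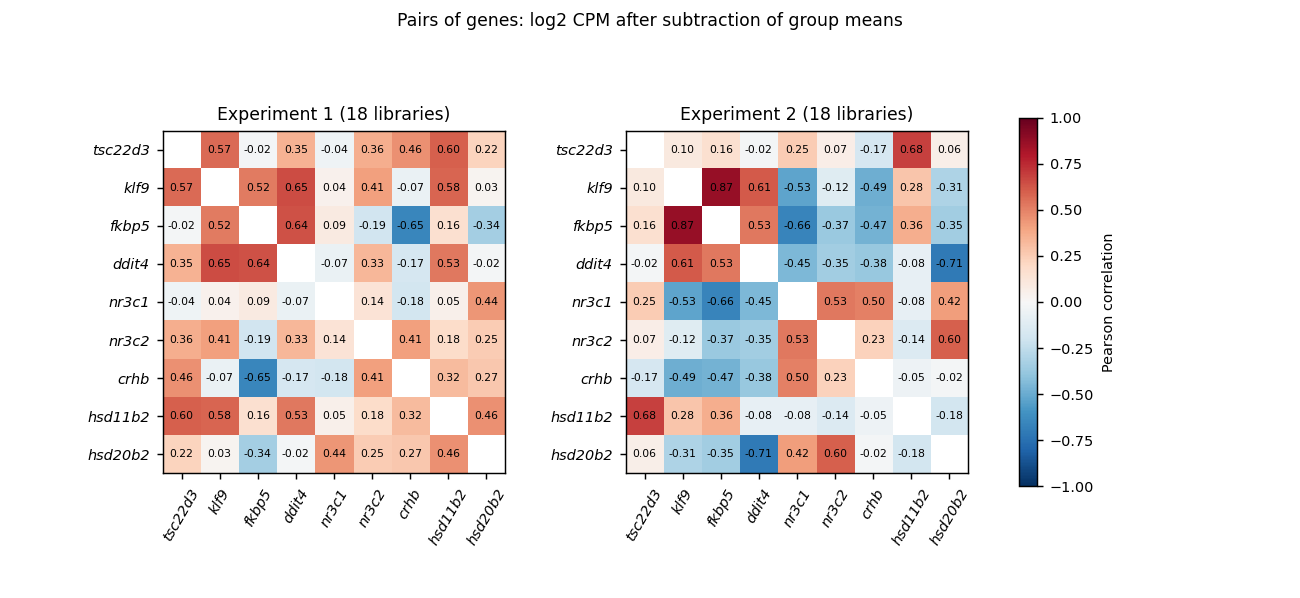
Pearson correlation between pairs of the 9 genes over the 18 libraries of each experiment, from log2 CPM after subtraction of group means. Red is positive and blue negative: the block of klf9, fkbp5 and ddit4 is positive in both experiments (0.52 to 0.87), and nr3c1 is negative with them in experiment 2 (-0.66 to -0.45).

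Over all 36 libraries and 16223 genes, the genes whose deviations were most like those of each target were named. For klf9 they were fkbp5 (Pearson r = 0.80), cish (0.77), a cytokine signalling inhibitor of the glucocorticoid-induced list, and si:dkey-201c13.2 (0.76), the gene next to klf9 (chromosome 5, 26079178 to 26083143). cish gave 0.28 in experiment 1 and 0.86 in experiment 2, and 0.57 without the 2 farthest libraries. fkbp5 was closest to klf9, then to ccdc129 (0.72) and the long non-coding RNA CABZ01040021.1 (0.70), which gave 0.23 in experiment 1 and 0.80 in experiment 2. For ddit4 they were ip6k2b (0.85), an inositol hexakisphosphate kinase gene, mycb (0.83), a Myc gene, and ntn4 (0.81), a netrin gene, each above 0.6 in either experiment. tsc22d3 was closest to ctdsp2, efna1b and msl1a (0.76 each), and its 3 closest genes did not include another of the 9.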

How the data were processed

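The data are 36 RNA-seq libraries of larval heads. The submitters' processing notes list bcl2fastq, the aligner STAR (2.5.3a), the suite Partek (8.0.19.0428) and the genome build GRCz11. Neither the gene annotation nor the strand setting of the counting is stated. The authors deposited unnormalized estimated counts per gene, which need not be whole. Of them 9.44% in experiment 1 and 17.3% in experiment 2 differed from a whole number by over 0.01, and all were rounded for the tests.

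Tests used edgeR 4.0.16 under R 4.3.3 (quasi-likelihood fit, TMM, edgeR's filter on low counts, 3 groups per experiment), with Benjamini-Hochberg adjustment over all 19727 and 20169 genes tested, two-sided. The SE was taken from the log2 fold change and its F statistic. Differences between experiments were interactions over 36 libraries and 21208 genes. The fit was tested on simulated data. Alternatives were DESeq2 1.42.0, limma 3.58.1 (voom with sample weights), the size factors of DESeq2 within edgeR, testing every gene or only those with a mean of 1 CPM or more, fitting 2 groups at a time, a replicate block, library sizes without the structural RNAs RF00017 and rn7sk, and leaving out each library or re-colonized 1 and 7 of experiment 2. Adding the TSC22D3 row, and reading the fit without axenic 7 on its own, were chosen after seeing the data.

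The 9 genes and all lists were chosen with earlier results of these data known. The rule for naming list genes was a call in 1 direction against both colonized groups of an experiment, at most 5 per list and experiment by the larger adjusted p. Some list genes were named outside this rule, among them crhbp, ucn3l, oxt, pomca, mc2r, hsd11b1la, fkbp4, st13, per1a and pdk2a. Likeness used genes with a mean of at least 1 CPM in both experiments. Promoter sequences were not used here, so a planned motif search was not run.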

Additional observations from a re-analysis of the deposited data

Results flagged for a closer look

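The axenic to conventional difference of tsc22d3 differed between experiments by 1.03 on the log2 scale (SE 0.20, edgeR adjusted p = 0.031), being -0.37 in experiment 1 and -1.34 in experiment 2, with the axenic libraries below every conventional library in both. The same difference of trim63a differed by 1.92 (SE 0.38, edgeR adjusted p = 0.031), being -0.70 and -2.55. RNA extraction and selection differ between the experiments and cannot be told apart from other differences between them.

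crhb stood at 3.6 CPM in re-colonized B of experiment 1, apart from the other 5 libraries of its group (5.07 to 5.93 CPM), with a gap of 0.631 of the group's range. It was the single such library in 54 groups of values checked, where chance flags about 1 in 20, or 2.7 groups.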

How the results depend on the processing

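Of 1287 recomputed log2 differences of the 9 genes, 351 belonged to the 17 called results: 317 stayed called in the same direction, 34 lost the call and 0 reversed. Of the others, 861 stayed uncalled, 11 passed the threshold and 64 changed sign, all of values close to 0 that were called under no setting. The cause of each change was not tested. Replicate letters or numbers were not taken to pair the libraries, since no comparison had every pair's correlation of deviations over 0.1. The lowest was -0.191 to -0.003 and the highest 0.066 to 0.401 by comparison, and 2 of 10, 3 of 8 and 5 of 8 libraries of experiment 1 and 4 of 8, 5 of 8 and 6 of 14 of experiment 2 correlated best with their own number, a hint of pairing in some comparisons that the labels do not state.

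With the replicate block, 3 of the 9 genes were called in axenic against re-colonized heads of experiment 1 (2 with the same libraries and no replicate block), 2 against conventional heads of experiment 2 (2), and 5 other pathway genes there (6). These fits drop libraries without a partner. Against re-colonized heads of experiment 1, tsc22d3 and hsd11b2 lost the call in both fits. The edgeR adjusted p was 0.0607 and 0.091 with the replicate block, and 0.0547 and 0.0727 without it. fkbp5 lost the call there only without the block (edgeR adjusted p = 0.0731). Against conventional heads of experiment 2, klf9 gave -0.99 with the replicate block (edgeR adjusted p = 0.207) and -1.16 without it (0.161), and fkbp5 -0.88 (0.246) and -1.09 (0.178). tsc22d3 passed against re-colonized heads there with the replicate block (-0.84, edgeR adjusted p = 0.0282). Between re-colonized and conventional heads of experiment 2, DESeq2 and limma voom called 1 of the 9 genes each, tsc22d3, and DESeq2 called 1 other pathway gene. In interactions DESeq2 called 4 other pathway genes for axenic against conventional and 1 for axenic against re-colonized heads. Shares of all genes were not computed for DESeq2 and limma voom. Leaving out a library each in turn gave 13 to 25 other pathway genes in axenic against conventional heads of experiment 1 and 6 to 15 in experiment 2, and 2 to 4 and 0 to 3 of the 9 genes against conventional and re-colonized heads of experiment 2.

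Sign changes by setting were as follows. For axenic against re-colonized heads of experiment 1, crhb gave -0.02 in limma voom, -0.25 with the replicate block and -0.20 with the same libraries and no block. Between re-colonized and conventional heads of experiment 1, tsc22d3 gave 0.0014 in DESeq2, 0.0013 with its size factors, 0.0043 without structural RNAs and 0.00026 with TSC22D3 added. ddit4 gave 0.0044 in DESeq2 and with its size factors, 0.00092 with the filter at 1 CPM and 0.0068 without structural RNAs. klf9 gave -0.07 and crhb -0.21 with the replicate block, and -0.07 and -0.23 without it. nr3c1 of axenic against conventional heads of experiment 2 gave -0.03 in DESeq2 and with its size factors, -0.02 with the filter at 1 CPM and in the fit of the 2 groups alone, and -0.07 and -0.10 with the replicate block and without it. In the interaction of re-colonized against conventional heads, hsd20b2 gave 0.02 in DESeq2 and with its size factors, and klf9 -0.0077 with the filter at 1 CPM. Leaving out a library gave crhb -0.11 to 0.20, -0.12 to 0.17 and -0.11 to 0.15 in the 3 comparisons of experiment 1. Between re-colonized and conventional heads it gave ddit4 -0.11 to 0.08, fkbp5 -0.03 to 0.21, nr3c1 -0.0033 to 0.04 and tsc22d3 -0.04 to 0.04 in experiment 1 and klf9 -0.12 to 0.19 in experiment 2. In axenic against conventional heads of experiment 2 it gave nr3c1 -0.10 to 0.11 and nr3c2 -0.04 to 0.22.

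Low counts limit what crhb and ucn3l can show, and comparisons with axenic heads of experiment 2 rest on 4 axenic libraries.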
